A study of Mus musculus with 27 samples.

Results

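Joins between a bait just upstream of the Sμ switch region and the 10 kb above it, towards the heavy-chain J segments, made up 6728 of the 193201 junctions in this class switch recombination series. Members were taken by position alone: a junction on chromosome 12, on either strand, between chr12:114664914-114674913 (mm9), which is the 10 kb that begins at the first base above all bait alignments. The plus strand held 5317 of them and the minus strand 1411. Junctions were mapped by LAM-HTGTS (linear amplification from a biotinylated bait primer, then sequencing through the joint into its partner, the prey) in CH12F3, a mouse B-cell lymphoma line that switches from IgM to IgA in culture. Every culture had been stimulated for 72 hours with αCD40, IL-4 and TGFβ, and every library was made from sonicated DNA with AflII as the blocking enzyme.

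The groups were XLF-/-PAXX-/- (2 clones), Ligase4-/- (2 clones), XLF-/- (2 clones), PAXX-/- (2 clones) and the parental WT line, which is a single clone, with 3 libraries of each clone and 27 in all. Both XLF-/-PAXX-/- clones descend from a single PAXX-/- clone, and the second Ligase4-/- clone was obtained from elsewhere, so clones of a genotype are not fully independent. A library held between 3610 and 14524 junctions (median 6876), of which 43 to 605 lay above the bait. WT libraries held 43 to 49 upstream junctions, which limits every WT value on distance and joint structure. The flow cells in the read names show that XLF-/- and PAXX-/- libraries shared their 2 runs, while each of the other genotypes was sequenced in runs of its own, where run and genotype cannot be told apart.

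Ligase 4 is the ligase that closes double-strand breaks in classical non-homologous end joining, and XLF and PAXX are accessory factors that help hold and align the ends. Without that pathway, breaks in switch regions are joined by alternative end joining, which favours short stretches of homology, called microhomology, over direct joining of blunt ends. Activation-induced deaminase starts switching breaks in Sμ and Sα, and the intronic enhancer and the J segments lie on the far side of the bait from Sμ, so joins in this window involve ends away from the switch repeats.

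The bait reads towards lower coordinates, so its broken end keeps the J side of the break. A minus-strand upstream prey reads in the same direction as the bait and keeps the sequence below its junction, the geometry of an excised circle or a tandem repeat of the stretch between both ends. A plus-strand upstream prey keeps the sequence above its junction, on the J side. This is the geometry of an inversion of the stretch between both ends, or of copies of the locus joined head to head. The strand alone does not tell these apart.

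The bait, several of the most used plus-strand joins and several of the most used minus-strand joins are shown because the text returns to their strand, distance and overlap. In the bait sequence (chr12:114664831-114664909, minus strand, mm9), capitals mark 9 bait ends of recurrent joins, and the joins printed here are some of those. In the joins, read in the direction of the bait, capitals mark the bases that bait and prey share, or, where they share none, the last bait base and the first prey base. These joins were chosen after their values were seen.
bait: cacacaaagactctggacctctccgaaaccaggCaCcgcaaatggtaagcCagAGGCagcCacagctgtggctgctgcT
plus join 1: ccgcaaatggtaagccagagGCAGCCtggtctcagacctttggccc
plus join 2: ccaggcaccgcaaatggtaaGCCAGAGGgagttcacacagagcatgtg
plus join 3: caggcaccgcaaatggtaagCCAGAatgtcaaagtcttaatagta
plus join 6: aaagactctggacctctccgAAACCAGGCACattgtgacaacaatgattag
minus join 1: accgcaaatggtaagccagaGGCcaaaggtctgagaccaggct
minus join 2: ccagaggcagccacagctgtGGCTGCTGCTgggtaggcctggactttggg
minus join 3: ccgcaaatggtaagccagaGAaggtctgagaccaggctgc

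Plus join 1 links a bait end at 114664849 to position 114665035, 122 bases above the bait, over 6 shared bases, and was read in 11 libraries of 6 clones. Plus join 2 (114664854 to 114665078, 165 bases above, 8 shared bases) was read in 11 libraries of 6 clones. Plus join 3 (114664856 to 114665279, 366 bases above, 5 shared bases) was read in 11 libraries of 8 clones. Plus join 6 (114664874 to 114667336) reached 2423 bases above the bait over 11 shared bases and was read in 9 libraries of 6 clones. Each of these reads came from a different library. The filters applied before deposit are not given, so repeats of a join within a library may have been removed. Recurrence was the exception among the deposited reads. Without long gaps, 5083 plus-strand reads held 4120 distinct combinations of bait end, junction and overlap, and 3535 of these were seen once.

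The genotypes differed in the plus-strand joins. Plus-strand upstream junctions made up 3.46%, 3.39% and 3.63% of all junctions in the libraries of XLF-/-PAXX-/- clone 1, and 3.03%, 2.96% and 3.48% in those of clone 2. They were 3.58%, 3.30% and 3.53% in Ligase4-/- clone 1 and 3.51%, 2.43% and 3.36% in clone 2. In XLF-/- clone 1 they were 3.91%, 3.68% and 3.61%, and in clone 2 they were 2.86%, 3.45% and 2.68%. Each of these 18 libraries lay above each PAXX-/- and WT library. In PAXX-/- clone 1 they were 0.919%, 0.951% and 0.758%, and in clone 2 they were 0.669%, 1.34% and 1.18%. The WT libraries held 0.747%, 0.526% and 0.349%, so PAXX-/- and WT overlapped.

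**Figure D1:**
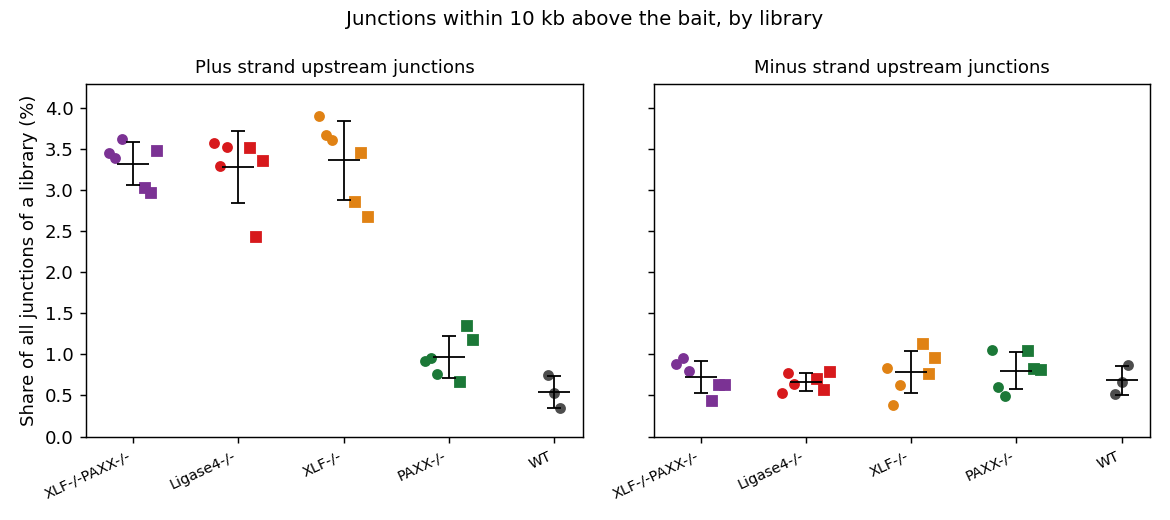
Share of all junctions of a library (%, vertical axis) that lay within 10 kb above the bait, on the plus strand (left) and the minus strand (right); each point is a library, circles and squares are the clones of a genotype, and bars are the mean and SD over libraries. On the plus strand XLF-/-PAXX-/-, Ligase4-/- and XLF-/- libraries lie between 2.43% and 3.91% and PAXX-/- and WT libraries at or below 1.34%, while on the minus strand all genotypes share 1 range.

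As means over libraries, the plus-strand share was 3.33% ± 0.266 in XLF-/-PAXX-/- (SD, n = 6), 3.28% ± 0.433 in Ligase4-/- (n = 6), 3.36% ± 0.487 in XLF-/- (n = 6), 0.969% ± 0.252 in PAXX-/- (n = 6) and 0.541% ± 0.199 in WT (n = 3). Against WT this is a ratio of 6.15 for XLF-/-PAXX-/-, 6.07 for Ligase4-/- and 6.22 for XLF-/-. Each of these differences had p = 0.0119 in the exact two-sided permutation test over libraries, the smallest value 6 against 3 libraries can give, and an adjusted p of 0.0387 over 104 tests. Libraries of 1 clone are not separate clones, and WT is 1 clone, so these tests measure the spread between libraries. PAXX-/- minus WT was 0.428 points (95% interval 0.0110 to 0.827), and this did not pass (exact permutation p = 0.0476, adjusted p = 0.113).

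PAXX-/- was sequenced in the same runs as XLF-/-, and XLF-/- lay 2.39 points above it (95% interval 1.90 to 2.89). The exact permutation p was 0.00216, with an adjusted p of 0.0188. Within the first shared run XLF-/- averaged 3.38% and PAXX-/- 0.794%, and within the second 3.35% and 1.06%. The exact permutation test stratified by run gave p = 0.00476. No difference between XLF-/-PAXX-/- and XLF-/- was detectable at this depth: XLF-/-PAXX-/- minus XLF-/- was -0.0386 percentage points (95% interval -0.546 to 0.475). XLF-/-PAXX-/- minus Ligase4-/- was 0.0412 percentage points (95% interval -0.356 to 0.538).

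With the clone as the unit, 96.8% of the variation of the plus-strand share lay between genotypes. The exact permutation test over the 945 ways to assign 9 clones gave p = 0.0360, and the adjusted p over 13 measures was 0.0935, so this test did not pass. The same adjusted p was found for the upstream share, for its share of the junctions around the bait, for the plus-strand share of upstream junctions and for the microhomology share, and no measure passed.

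No genotype differed detectably from WT in minus-strand joins. Libraries ranged from 0.433% to 0.960% in XLF-/-PAXX-/-, 0.529% to 0.786% in Ligase4-/-, 0.390% to 1.13% in XLF-/-, 0.492% to 1.05% in PAXX-/- and 0.515% to 0.873% in WT, and all genotypes overlapped. Their share of all junctions averaged 0.725% ± 0.195 in XLF-/-PAXX-/-, 0.666% ± 0.107 in Ligase4-/-, 0.785% ± 0.259 in XLF-/-, 0.804% ± 0.226 in PAXX-/- and 0.684% ± 0.180 in WT. Genotype accounted for 17.9% of the variation between clones (exact permutation p = 0.916). The interval of XLF-/-PAXX-/- minus WT, -0.265 to 0.349 percentage points, allows a change in either direction larger than the SD between libraries. The strand balance differed: plus-strand joins were 82.3% of upstream junctions in XLF-/-PAXX-/-, 83.0% in Ligase4-/-, 80.8% in XLF-/-, 54.8% in PAXX-/- and 44.0% in WT. The first 3 genotypes each differed from WT (exact permutation p = 0.0119, adjusted p = 0.0387).

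Plus-strand joins also occur below the bait, counted here within 10 kb on the Sμ side, where the prey is joined in inverted orientation. Their share of all junctions was 6.60% ± 0.570 in XLF-/-PAXX-/-, 5.78% ± 1.13 in Ligase4-/-, 6.02% ± 0.669 in XLF-/-, 2.49% ± 0.371 in PAXX-/- and 2.97% ± 0.244 in WT. The ratio of XLF-/- to WT was thus 2.03 below the bait, against 6.22 above it. In the same libraries the number of plus-strand junctions above the bait per plus-strand junction below it was 0.507 ± 0.0588 in XLF-/-PAXX-/-, 0.577 ± 0.0747 in Ligase4-/-, 0.559 ± 0.0558 in XLF-/-, 0.392 ± 0.103 in PAXX-/- and 0.182 ± 0.0630 in WT. All 4 mutant genotypes passed against WT: the exact permutation p was 0.0119 (adjusted over 16 tests, 0.0238) for the first 3 genotypes and 0.0238 (adjusted 0.0381) for PAXX-/-. XLF-/- was higher than PAXX-/- by 0.167 (exact permutation p = 0.0152, adjusted p = 0.0269). This measure was added after the data were seen. The PAXX-/- call against WT was lost in 5 of 7 other settings (exact permutation, adjusted p between 0.0173 and 0.106), and the call of XLF-/- against PAXX-/- in 3 of 7 (exact permutation, differences of 0.0232 to 0.226).

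**Figure D2:**
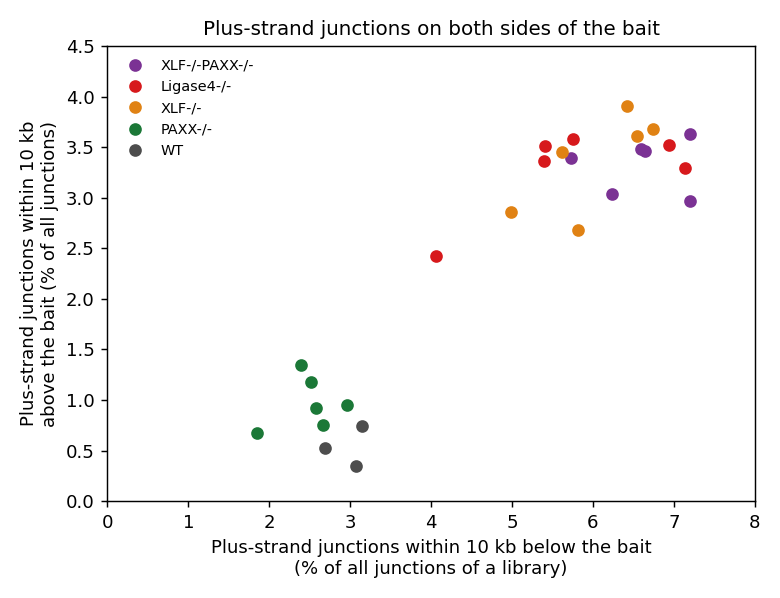
Plus-strand junctions within 10 kb above the bait (vertical axis) against those within 10 kb below it (horizontal axis), both as % of all junctions of a library, 1 point per library, coloured by genotype. XLF-/-PAXX-/-, Ligase4-/- and XLF-/- libraries lie at high values of both shares, and the 3 WT libraries lie lowest on the vertical axis for their place on the horizontal one.

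The window was not filled evenly, and most of it held no junction. On the plus strand 2194 junctions fell in the first 500 bases, 1005 in the next 500, then 656, 680, 473 and 267 in the following bins of 500 bases. The bin from 3001 to 3500 bases held 40, that from 3501 to 4000 held 2, and the 12 bins beyond it held none. On the minus strand the same bins held 820, 173, 105, 134, 98, 76 and 5 junctions, and none lay beyond 3121 bases. Of the 6441 junctions on either strand without a gap over 20 bases, 0 lay more than 3130 bases above the bait, which allows a share of up to 0.0466%. The uppermost 68.7% of the 10 kb window thus held no such junction.

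**Figure D3:**
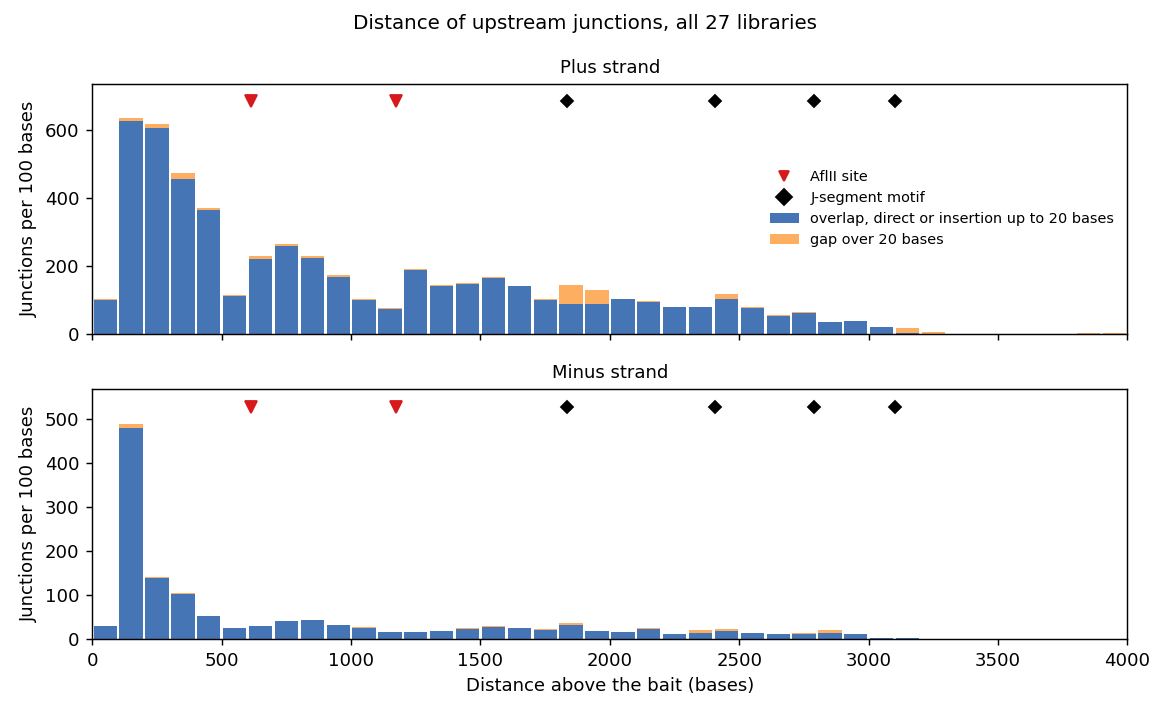
Junctions per 100 bases (vertical axis) by distance above the bait in bases (horizontal axis), over all 27 libraries, for the plus strand (above) and the minus strand (below); orange marks reads with a gap over 20 bases between bait and prey, triangles AflII sites and diamonds the J-segment motif. Among reads without a long gap counts drop to 0 at the last J segment. The few reads beyond it have long gaps, the plus strand dips below both AflII sites, and the minus strand has 1 peak between 100 and 200 bases.

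Junction sequences in the tables overlap so densely that they give the mm9 letters of 3196 of the first 3200 bases, with 0 conflicts. A motif of J segments, the letters TGGGG followed after any 4 bases by GG (the codons for the conserved tryptophan and glycines), was searched on both strands. It occurred on the minus strand at 1835, 2406, 2789, 3102 and 3194 bases. The spacings of the first 4, which are 571, 383 and 313 bases, equal those between Ighj4, Ighj3, Ighj2 and Ighj1 in RefSeq (GRCm38.p6), so these matches were taken as the J segments in that order. The same motif is in 5888 of 32851 RefSeq promoter windows of 300 bases (17.9%, GRCm38.p6), so a match alone does not mark a J segment. The fifth match was not paired with a J segment.

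Plus-strand prey reads stopped at fixed points inside J segments. Among reads without a long gap, 44 ended at 2813 bases, in Ighj2, and 34 at 3130 bases, in Ighj1. Beyond these points the reads went on with other letters. In the sequences below, small letters are aligned prey up to the stop and capitals the bases read after it, followed by the mm9 letters at that place.
edge 2813: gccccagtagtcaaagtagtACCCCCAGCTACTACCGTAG
mm9 after 2813: cacactatcatagacccctt
edge 3130: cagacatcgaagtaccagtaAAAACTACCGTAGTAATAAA
mm9 after 3130: gcacagtctctgttctgcct

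The aligned parts are chr12:114667707-114667726 and chr12:114668024-114668043, and the mm9 letters are chr12:114667727-114667746 and chr12:114668044-114668063, all on the plus strand. Of the reads with at least 20 bases beyond the stop, 31 of 40 at 2813 and 24 of 31 at 3130 continued with the first 14 of these letters. Both continuations share the 10 letters ACTACCGTAG. At 2813, 63 other plus-strand reads ran across the point, and 88 junctions lay beyond it. At 3130 no read without a long gap ran across and no such junction lay beyond. Reads ending at 2813 or 3130 came from 7 of the 9 clones each, and none came from WT, whose plus-strand reads are few. The 88 junctions between 2813 and 3130 bases were 27 from XLF-/-PAXX-/-, 34 from Ligase4-/-, 22 from XLF-/-, 4 from PAXX-/- and 1 from WT. A B cell assembles a D and a J segment on each allele, which removes the germline sequence above the J segment used.

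Plus-strand junctions were fewer just below the AflII sites than just above them. The letters CTTAAG occur at 613 and 1174 bases and nowhere else in the covered stretch, and in 5.31% of RefSeq promoter windows of 300 bases. The 100 bases below the site at 613 held 100 plus-strand junctions and the 100 bases above it 239. Over 200 bases on each side the counts were 453 below and 495 above. The 100 bases below the site at 1174 held 45 and those above it 182, and over 200 bases 167 and 335. A prey read from just below a site runs up across it, and 41 reads spanned the first site and 17 the second. On the minus strand, whose reads run down, 23 and 24 junctions flanked the first site and 21 and 8 the second. AflII was the blocking enzyme in all libraries, and its part in these counts was not tested.

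Reads with more than 20 unaligned bases between bait and prey formed a group of their own. There were 287, of which 234 were on the plus strand: 12 in XLF-/-PAXX-/-, 78 in Ligase4-/-, 62 in XLF-/-, 76 in PAXX-/- and 6 in WT. As a share of upstream junctions on both strands, long-gap reads averaged 0.944% in XLF-/-PAXX-/-, 4.25% in Ligase4-/-, 5.35% in XLF-/-, 14.5% in PAXX-/- and 4.86% in WT. XLF-/-PAXX-/- was lower than XLF-/- and than PAXX-/- (exact permutation p = 0.00216, adjusted p = 0.0188 for each) and than Ligase4-/- (exact permutation p = 0.00433, adjusted p = 0.0346). Run and genotype cannot be told apart in these calls, since the XLF-/-PAXX-/- libraries were sequenced in a run of their own. Of the 287 long-gap reads, 134 came from 1 of the runs that XLF-/- and PAXX-/- shared. Between 1801 and 1900 bases, around the Ighj4 motif, long-gap reads made up 56 of 144 plus-strand junctions. Of these 56, 51 came from that run. All 20 plus-strand junctions beyond 3130 bases were of this kind and from that run. Without long gaps the plus-strand share of all junctions was 3.30% in XLF-/-PAXX-/-, 3.15% in Ligase4-/-, 3.19% in XLF-/-, 0.750% in PAXX-/- and 0.490% in WT, and XLF-/- then exceeded PAXX-/- by a ratio of 4.25.

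Over the whole window, plus-strand joins without long gaps lay farther from the bait in XLF-/-PAXX-/-, Ligase4-/- and XLF-/- than in WT. Without long gaps the median distance of plus-strand junctions averaged 741 ± 73.9 bases in XLF-/-PAXX-/-, 765 ± 53.0 in Ligase4-/-, 739 ± 86.8 in XLF-/-, 491 ± 147 in PAXX-/- and 391 ± 136 in WT. The WT medians were 366, 538 and 269 bases, below each library of XLF-/-PAXX-/-, Ligase4-/- and XLF-/- (exact permutation p = 0.0119, adjusted over 24 tests 0.0204 for each). XLF-/- exceeded PAXX-/- by 248 bases (95% interval 96.7 to 404, exact permutation p = 0.00866, adjusted p = 0.0204), with overlap between libraries. This call was lost with the window from 200 bases (175 bases, exact permutation, adjusted p = 0.0919), with baits shorter than 56 bases (281 bases, adjusted p = 0.0519) and thinned to the smallest library (59.5 bases, adjusted p = 0.705). The share over 1 kb was 39.0% in XLF-/-PAXX-/-, 40.6% in Ligase4-/-, 38.6% in XLF-/-, 29.4% in PAXX-/- and 24.5% in WT. With clones as the unit, 96.9% of its variation lay between genotypes (exact permutation p = 0.0116, adjusted over 3 measures 0.0349), a call lost with baits shorter than 56 bases (88.7%, exact permutation, adjusted p = 0.0730). The median distance did not pass the same test over clones (90.6%, exact permutation p = 0.105, adjusted p = 0.105). These tests were added after the data were seen. With baits shorter than 56 bases the median differences were 99.8 (XLF-/-PAXX-/-), 82.3 (Ligase4-/-) and 107 bases (XLF-/-) from WT and did not pass, and thinned to the smallest library Ligase4-/- alone passed. Among joins over 1 kb none of these 4 differences passed (exact permutation, adjusted p = 1 for each), and the direction turned for 3 of them, to -108 bases for Ligase4-/- minus WT, -126 bases for XLF-/- minus WT and -106 bases for XLF-/- minus PAXX-/-, with 17.2 bases for XLF-/-PAXX-/- minus WT. With long gaps kept, the PAXX-/- median was 892 ± 432 bases. XLF-/-PAXX-/-, Ligase4-/- and XLF-/- then each had an exact permutation p of 0.0119 against WT in median distance, with an adjusted p of 0.0741 over 88 tests, so none passed. The share over 1 kb was then 39.0% in XLF-/-PAXX-/-, 41.1% in Ligase4-/-, 40.8% in XLF-/-, 42.1% in PAXX-/- and 29.3% in WT. Over clones this share did not pass either (67.3%, exact permutation p = 0.231, adjusted over 11 measures 0.423).

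By distance, the plus-strand share of all junctions in the first 500 bases was 1.36% in XLF-/-PAXX-/-, 1.35% in Ligase4-/-, 1.37% in XLF-/-, 0.382% in PAXX-/- and 0.295% in WT. From 1001 to 1500 bases it was 0.379%, 0.458% and 0.439% in the first 3 genotypes, 0.0652% in PAXX-/- and 0.0360% in WT. Between 1501 and 2000 bases PAXX-/- held 0.230% ± 0.145, from 81 junctions of which 26 were without a long gap. Over all genotypes 103 of the 680 plus-strand junctions in that bin were long-gap reads.

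Overlap was counted as read bases aligned to both bait and prey, so that a value above 0 is microhomology, 0 a direct join and below 0 an insertion. Over both strands, direct joins were 10.3% ± 1.67 of upstream junctions in XLF-/-PAXX-/-, 8.29% ± 2.19 in Ligase4-/-, 10.5% ± 3.13 in XLF-/-, 18.6% ± 7.04 in PAXX-/- and 20.3% ± 7.50 in WT. The differences from WT passed for XLF-/-PAXX-/- and Ligase4-/- (exact permutation p = 0.0119, adjusted p = 0.0387) and not for XLF-/- (exact permutation p = 0.0238, adjusted 0.0635). From 1 kb, and without the 5 positions named below, neither call held (-7.99 and -6.83 points for XLF-/-PAXX-/-, -8.00 and -8.64 points for Ligase4-/-). The direct share pools both strands, whose balance differed between genotypes. As the mean over clones, 7.35% of plus-strand and 24.6% of minus-strand upstream joins were direct. How much of the differences from WT the strand balance makes up was not tested. Microhomology joins were 66.1%, 67.7%, 66.5%, 50.2% and 59.0% of upstream junctions in the same order of genotypes. Here XLF-/- lay 16.3 points above PAXX-/- (95% interval 9.92 to 24.1), with an exact permutation p of 0.00216 and an adjusted p of 0.0188. Long-gap reads count as insertions and made up the largest share of upstream junctions in PAXX-/-. Without them microhomology joins were 66.8%, 70.8%, 70.3%, 58.6% and 62.1% in the same order. The call of XLF-/- against PAXX-/- held in all 9 other settings, at 11.6 to 23.1 points. This share, too, pools both strands.

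Split by strand, the difference in direct joins did not appear among plus-strand joins. These were direct in 7.81% ± 1.25 of XLF-/-PAXX-/-, 6.13% ± 1.47 of Ligase4-/-, 6.43% ± 1.42 of XLF-/-, 8.65% ± 4.83 of PAXX-/- and 8.13% ± 8.66 of WT junctions. Genotype accounted for 55.6% of the variation between clones (exact permutation p = 0.420), and the interval of XLF-/- minus WT ran from -10.3 to 6.06 percentage points. In the Sα window, the 20 kb around the densest prey site, direct joins by clone were 5.94% and 5.75% in XLF-/-PAXX-/-, 6.0% and 6.54% in Ligase4-/-, 6.44% and 6.06% in XLF-/-, 17.1% and 16.6% in PAXX-/- and 18.4% in WT. Plus-strand upstream joins minus Sα was 1.97 percentage points in XLF-/-PAXX-/-, -0.141 in Ligase4-/-, 0.187 in XLF-/-, -8.22 in PAXX-/- and -10.2 in WT. XLF-/- and PAXX-/- differed in this gap by 8.41 points (95% interval 4.17 to 13.1, exact permutation p = 0.00216, adjusted over 88 added tests 0.0476), and within the shared runs by 6.26 and 9.48 points. That call was lost in 5 other settings (4.51 to 12.3 points, adjusted p 0.0616 to 0.588), among them short baits, thinning and the removal of long gaps. WT held 6 direct joins among 62 plus-strand junctions, pooled 9.68% with an exact 95% interval of 3.63% to 19.9%, which includes the WT level in Sα.

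**Figure D4:**
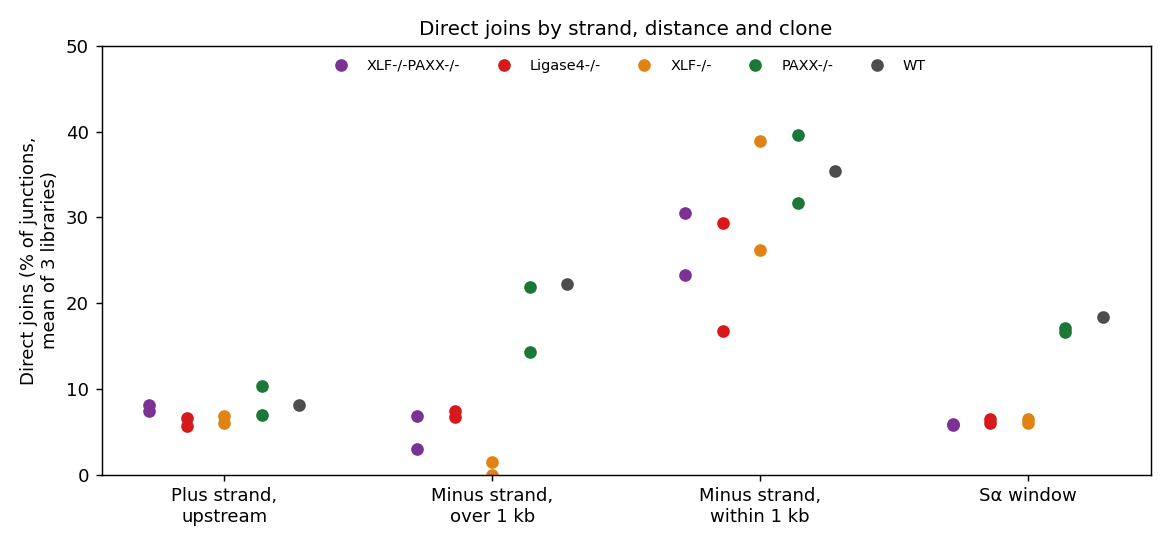
Direct joins as % of junctions (vertical axis, mean of 3 libraries) for plus-strand upstream joins, minus-strand joins over 1 kb, minus-strand joins within 1 kb, and the Sα window; each point is a clone, coloured by genotype. PAXX-/- and WT clones stand above the others in the Sα window and among minus-strand joins over 1 kb, and not among plus-strand joins, where all clones lie between 5.63% and 10.4%.

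Minus-strand joins were direct more often than Sα joins in all 9 clones, by 14.8 ± 6.05 percentage points (24.6% against 9.87%, exact sign-flip permutation p = 0.00391, adjusted p = 0.0156). This rested on joins near the bait. Within 1 kb, 294 of 993 minus-strand junctions were direct, which by genotype was 26.9% ± 8.45 in XLF-/-PAXX-/-, 23.0% ± 7.46 in Ligase4-/-, 32.5% ± 8.45 in XLF-/-, 35.6% ± 9.06 in PAXX-/- and 35.5% ± 22.6 in WT (exact permutation p = 0.495 between genotypes). Over 1 kb, 38 of 418 were direct, 4.91% ± 3.57 in XLF-/-PAXX-/-, 7.05% ± 8.41 in Ligase4-/-, 0.725% ± 1.77 in XLF-/-, 18.1% ± 9.19 in PAXX-/- and 22.2% ± 6.94 in WT. In counts these were 5 of 104, 9 of 131, 1 of 64, 16 of 89 and 7 of 30. Each XLF-/- and XLF-/-PAXX-/- library lay below each WT library here, but the adjusted p was 0.0741 (exact permutation p = 0.0119). With the window starting at 1 kb, minus-strand joins minus Sα fell to -0.564 percentage points (exact permutation p = 0.656).

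Of plus-strand junctions without long gaps, 23.8% held an insertion and 8.17% were direct as the mean over clones, 12.3% shared 1 base, 22.8% shared 2, 16.2% shared 3 and 7.62% shared 4. Mean microhomology length over all upstream junctions was 2.78 bases, against 4.10 bases for junctions on other chromosomes, and it was shorter in 9 of 9 clones (difference -1.32 ± 0.265, exact sign-flip permutation p = 0.00391, adjusted p = 0.0469). The mean length was 2.68 bases in the Sα window and 2.69 bases among minus-strand junctions within 10 kb below the bait. Neither differed detectably from the upstream value (exact sign-flip permutation, adjusted p = 0.270 and 0.375). The longest upstream overlap was 13 bases. Insertions were more frequent on the plus strand than in Sα by 6.41 ± 5.54 percentage points, in 9 of 9 clones (29.5% against 23.1%, exact sign-flip permutation p = 0.00391, adjusted p = 0.0156), and this call was lost without long gaps (2.32 points, adjusted p = 0.352) and with the window from 1 kb (6.76 points, adjusted p = 0.188).

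Minus-strand joins clustered at a few positions. The 5 positions with the highest mean share of a clone's upstream junctions were all on the minus strand and held 203 junctions, 14.4% of that strand. In the 20-base windows below, mm9 letters of the plus strand, capitals mark the prey side of the junction.
position 143: CAGACCTTTGgcccattcaa
position 173: GGCCAGAGGGagttcacaca
position 146: ACCTTTGGCCcattcaacaa
position 144: AGACCTTTGGcccattcaac
position 141: CTCAGACCTTtggcccattc

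The windows are chr12:114665047-114665066, chr12:114665077-114665096, chr12:114665050-114665069, chr12:114665048-114665067 and chr12:114665045-114665064. Position 143 held 63 junctions from 24 libraries and all 9 clones, 43 of them direct, with 27 different bait ends. Position 173 held 56 junctions from 23 libraries, 43 direct, with 16 bait ends. Position 146 held 32 junctions from 21 libraries, of which 31 shared bases with the bait and 1 was direct. Positions 144 and 141 held 26 each, 15 and 20 of them direct. Among the 5 positions together 60.1% were direct, and among the other 790 minus-strand junctions within 1 kb 21.8% were direct. By genotype position 143 held 17 junctions in XLF-/-PAXX-/-, 18 in Ligase4-/-, 12 in XLF-/-, 12 in PAXX-/- and 4 in WT. As a share of a clone's upstream junctions this was 0.825%, 0.909%, 0.901%, 2.02% and 2.84% in the same order. That share counts plus-strand joins in its denominator, and these were more frequent in the first 3 genotypes. Among minus-strand junctions alone, position 143 held 17 of 363, 18 of 397, 12 of 298, 12 of 274 and 4 of 79.

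Frequent single minus-strand joins used some of these positions. Minus join 1 (114664853 to 114665059, 3 shared bases) was read in 17 libraries of 9 clones. Minus join 3 left the bait at 114664855, reached 141 bases above the bait without overlap, and was read in 16 libraries. Minus join 2 (114664831 to 114665040) shared 10 bases and was read in 16 libraries. In 919 of 1411 minus-strand reads (65.1%), against 32 of 5317 plus-strand reads (0.602%), part of the deposited prey sequence is in small letters. In 891 of them the prey runs back down to the end of the bait, and in 885 of these (99.3%) the next 12 bases repeat, with at most 1 mismatch, those that followed the bait the first time. How these letters arose was not tested, and the repeat is not counted as a second joint.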

How the data were processed

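Members, measures and positions were chosen with earlier results of these data known. Per the file headers, a line of the deposited tables is 1 junction, with positions of bait and prey on the read and the genome, and the strand as a score of 1 or -1. The submitters' processing notes name Bowtie2 and mm9, with filters not given in the sources used here. Every table holds 1 clone. Its library column names 3 libraries without replicate numbers, so libraries were numbered by name and none was matched to a single sample. Libraries held 3610 to 14524 junctions.

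Distance was counted from the upper end of all bait alignments (114664913). Overlap was the last bait base on the read minus the first prey base plus 1. Shares were computed per library. Genotypes were compared by exact two-sided permutation over 9 clones and over libraries (intervals by inverting the test), and regions by exact two-sided sign-flip permutation within clones, with Benjamini-Hochberg adjustment per family and a threshold of 0.05 (Python 3.11.15, scipy 1.17.1). The code was tested on simulated data. Binomial intervals and limits cover counting error only. Named positions were the 5 with the highest mean share of a clone's upstream junctions, held by at least 5 clones, plus every 500-base bin. Repeated identical lines (24 of 6728) were kept. Alternatives varied the window start, bait length, gaps, identical lines, pooling, depth, denominator and each library or clone.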

Additional observations from a re-analysis of the deposited data

Results flagged for a closer look

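Among 52 sets of 6 libraries of 1 genotype, 3 held a library far from the others. This is close to the rate of about 1 in 20 that chance alone gives. In Ligase4-/- clone 2 the second library had an upstream share of 2.99%, against 4.07% in the next lowest Ligase4-/- library and a median of 4.13%. The same library had a plus-strand upstream share of 2.43% of all junctions, against 3.30% in the next lowest. It held 7827 junctions, 234 of them above the bait. In PAXX-/- clone 2 the second library had microhomology in 35.5% of its 110 upstream junctions, against 50.0% in the next lowest PAXX-/- library. Long-gap reads, which count as insertions, were 28.2% of its upstream junctions. Without long gaps its microhomology share was 49.4%, against 55.8% in the next lowest PAXX-/- library.

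The direct share of plus-strand upstream joins minus that of Sα joins differed between genotypes. It was 1.97 percentage points in XLF-/-PAXX-/-, 0.187 in XLF-/- and -8.22 in PAXX-/-. The signed value lay 8.41 points higher in XLF-/- than in PAXX-/- and 10.2 points higher in XLF-/-PAXX-/- than in PAXX-/- (exact permutation p = 0.00216 over libraries, adjusted p = 0.0476 for each). Both calls were lost in 5 other settings each, with the direction kept.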

How the results depend on the processing

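Of 3097 values recomputed under other settings for 71 results, 2689 kept their direction and their side of the threshold, 329 lost and 26 gained a call, and 53 changed sign. The plus-strand share against WT kept its direction without any 1 library or clone, at 2.62 to 2.95 points for XLF-/-PAXX-/-, 2.56 to 2.93 for Ligase4-/- and 2.46 to 3.19 for XLF-/-, and XLF-/-PAXX-/- minus PAXX-/- stayed at 2.19 to 2.52. The plus-strand share of upstream junctions against WT likewise stayed at 30.6 to 45.9, 31.4 to 46.7 and 29.2 to 44.5 points. Direct joins against WT stayed at -13.1 to -5.81, -15.2 to -7.87 and -13.0 to -5.70 points. With 1 library fewer the smallest possible p is larger, and calls were lost (adjusted p up to 0.226). Differences that had passed no test changed sign: XLF-/-PAXX-/- minus XLF-/- ranged from -0.406 to 0.329 and XLF-/-PAXX-/- minus Ligase4-/- from -0.143 to 0.225, and the minus-strand share against WT from -0.118 to 0.200 (XLF-/-PAXX-/-), -0.103 to 0.0762 (Ligase4-/-) and -0.0653 to 0.267 (XLF-/-). Leaving out 1 library or clone, upstream minus Sα was 2.48 to 3.43 points for direct joins and -5.99 to -4.13 for microhomology joins, and upstream minus other chromosomes was 4.65 to 8.47 points for microhomology joins and -1.36 to -1.25 bases for microhomology length. The direct share of plus-strand joins, XLF-/- minus WT, ranged from -5.76 to 2.86. The causes were not tested.

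The excess of direct joins over Sα (2.99 points) rested on the first bases above the bait. It was 0.658 from 200 bases, -1.81 from 1 kb and 0.779 without the 5 named positions, and lost its call at 2.89 with identical lines collapsed and at 2.95 with pooled counts. From 200 bases, microhomology minus Sα was -5.07, insertion minus Sα 4.42, and direct minus other chromosomes -4.91, all now passing. Against same-strand joins below the bait, direct was then -0.242 and insertion 1.47, and the minus-strand share against WT was -0.0140 (XLF-/-PAXX-/-) and 0.00206 (Ligase4-/-). From 1 kb, the same comparison below the bait gave -2.71 for direct, 1.38 for microhomology and 1.33 for insertion, direct minus other chromosomes was -7.38, and minus-strand joins minus Sα were -0.564 for direct and 2.85 for insertion. The minus-strand share against WT was then -0.0578 (XLF-/-PAXX-/-), -0.0984 (XLF-/-) and -0.00192 (PAXX-/-), and the plus-strand share of XLF-/-PAXX-/- minus Ligase4-/- was -0.0367. Direct joins against WT were -7.99 (XLF-/-PAXX-/-) and -8.00 (Ligase4-/-), plus-strand direct joins of XLF-/- minus WT 6.48, and the gap-free plus-strand median of XLF-/- and Ligase4-/- minus WT and of XLF-/- minus PAXX-/- was -126, -108 and -106 bases.

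The direct share of XLF-/- minus WT passed from 200 bases (-8.60), with baits shorter than 56 bases (-12.9), thinned (-10.1) and without insertions in the denominator (-11.9), while that of XLF-/-PAXX-/- did not pass when thinned (-10.5). With short baits, upstream minus Sα was -7.33 (microhomology), 3.51 (insertion) and 0.221 bases (length), upstream minus joins below the bait was 3.49 (direct) and 0.235 bases, and insertion minus other chromosomes was 0.653. XLF-/-PAXX-/- minus XLF-/- on the plus strand was 0.204, and the minus-strand share against WT was -0.127 (XLF-/-PAXX-/-) and -0.105 (XLF-/-). Without gaps over 20 bases, insertion minus Sα was -1.25, direct and microhomology minus joins below the bait were 2.79 and 1.46, and direct, microhomology and insertion minus other chromosomes were -5.36, -2.83 and 8.18. XLF-/-PAXX-/- minus XLF-/- was then 0.0739. Thinned to the smallest library, it was 0.00923, the minus-strand share of XLF-/-PAXX-/- minus WT was -0.0277, and microhomology minus Sα was -4.97. With junctions on chromosome 12 as the denominator, XLF-/-PAXX-/- minus Ligase4-/- was -0.312 and the minus-strand share of Ligase4-/- minus WT 0.0386. Without the 5 named positions, which were set aside after the data were seen, direct and microhomology minus joins below the bait were -0.120 and 0.484, direct minus other chromosomes -4.79, and direct joins against WT -6.83 (XLF-/-PAXX-/-) and -8.64 (Ligase4-/-).

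No paired analysis was possible because the library names carry no replicate number. WT rests on 62 plus-strand and 79 minus-strand junctions of 1 clone, which limits its joint structure and distances most.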
